A study of Mus musculus with 9 samples.

Results

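Of the 34714 genes in the deposited count table, 6 are described here: the corticosteroid receptors Nr3c1 and Nr3c2, the enzyme Hsd11b1, which makes active glucocorticoid inside cells, and the receptor co-chaperones Fkbp4, Fkbp5 and Ptges3. They were chosen by symbol as the machinery that receives corticosteroid signals, with the question of whether receptor supply or the Fkbp5 feedback loop changes. All 6 were found and passed the filter on low counts. RNA was sequenced from mouse cortex in 3 groups of 3 libraries. The first group (treated EAE) had experimental autoimmune encephalomyelitis (EAE), an induced immune attack on brain and spinal cord that serves as a model of multiple sclerosis, and was given Au18(L-NIBC)14, a gold compound that the series title describes as acting on oligomerization of ASC, an inflammasome adaptor. The second (untreated EAE) had the disease without the compound, and the third was naive. The labels number the brains 1 to 3 in each group. The sources used here do not give strain, sex, age, the way EAE was induced, disease stage, or the dose and time of treatment. No label says whether brains shared a litter, cage or day, and p-values measure the spread between these samples, part of which may be technical.

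Glucocorticoid and mineralocorticoid receptors wait in the cytoplasm in a complex with HSP90. The small chaperone p23, the product of Ptges3, stabilises that complex, and the immunophilins FKBP51 (Fkbp5) and FKBP52 (Fkbp4) compete for a place in it. FKBP52 favours transport of the receptor to the nucleus, while FKBP51 lowers its affinity for hormone. Fkbp5 is itself induced by the activated receptor, which closes a short feedback loop and makes its transcript a common readout of corticosteroid exposure in brain.

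The libraries held between 26972179 and 45243553 counts, and TMM scaling factors were between 0.98 and 1.02. Levels are CPM, counts scaled to a common library size, after that scaling. The 9 excitatory neuron markers of cortex were detected in every library, with summed levels of 5512 to 6291 CPM in treated EAE, 5466 to 5671 CPM in untreated EAE and 5120 to 5946 CPM in naive cortex. Markers of neighbouring tissue varied within groups, and summed striatal markers were between 218 and 1620 CPM over the naive libraries alone. In bulk RNA, fewer cells of a type and less RNA per cell cannot be told apart.

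The promoters of the competing pair of immunophilins are shown because Fkbp5 differed most between groups and Fkbp4 is its competitor. Each line is the 250 bases before the RefSeq start on the gene's strand (GRCm38.p6, the assembly called mm10). For Fkbp5 this is chr17:28486150-28486399 on the minus strand, and for Fkbp4 chr6:128438657-128438906 on the minus strand. Capitals mark CCAAT boxes (CCAAT, or ATTGG on the other strand) and the heat shock element pair GAANNTTC.
Fkbp5: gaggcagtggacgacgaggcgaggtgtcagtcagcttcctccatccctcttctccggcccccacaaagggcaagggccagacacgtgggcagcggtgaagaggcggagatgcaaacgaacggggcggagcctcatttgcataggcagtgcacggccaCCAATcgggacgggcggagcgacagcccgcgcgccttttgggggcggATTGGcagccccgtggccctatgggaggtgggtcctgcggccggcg
Fkbp4: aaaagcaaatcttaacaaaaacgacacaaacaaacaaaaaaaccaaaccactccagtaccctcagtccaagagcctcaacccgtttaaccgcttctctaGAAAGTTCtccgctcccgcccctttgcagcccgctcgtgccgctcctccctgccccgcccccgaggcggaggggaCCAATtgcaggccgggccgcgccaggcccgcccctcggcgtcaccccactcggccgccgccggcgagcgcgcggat

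The Fkbp5 window held 2 CCAAT boxes, starting 93 and 46 bases before the start, and the Fkbp4 window held 1, starting 76 bases before it, with 1 heat shock pair starting 151 bases before it. CCAAT was in 33.8% and GAANNTTC in 6.69% of 32851 mouse promoter windows of that length. The palindromic glucocorticoid response element, searched as GNACA and TGTNC with 3 bases between them, is in 0.387% of these windows and was not in the letters of either. Neither was its half-site TGTTCT, which is in 16.1% of them. Both strands were searched. Glucocorticoid response elements known for Fkbp5 include ones in introns, outside this window, and the GENCODE M21 gene extends further upstream, to position 28517527. A match or its lack in these letters says nothing about binding.

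Fkbp5 was the member that differed most between groups. Its level was 41.2, 46.7 and 22.4 CPM in the 3 treated EAE libraries, 92.7, 101 and 75.3 CPM in the untreated EAE libraries and 30.9, 29.7 and 23.0 CPM in the naive libraries. Every untreated EAE library was above every library of the other groups, and treated EAE replicate 3 lay just below the lowest naive library. The means were 36.8 ± 12.7 CPM in treated EAE, 89.9 ± 13.3 CPM in untreated EAE and 27.9 ± 4.25 CPM in naive cortex (SD, n = 3 each).

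**Figure D1:**
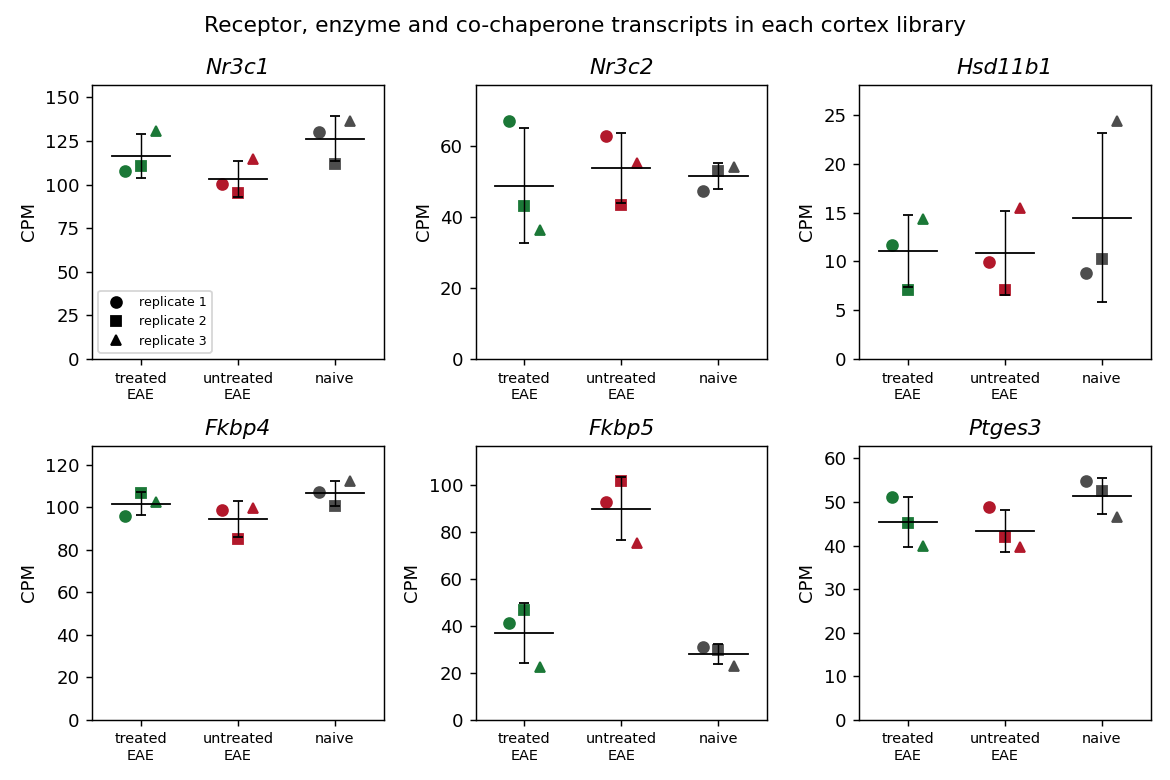
Level of each of the 6 transcripts in each library, in CPM on a linear axis from 0, by group (treated EAE, untreated EAE, naive); points are libraries, with shapes for replicate numbers, and bars are the mean and SD of 3 libraries. Fkbp5 in untreated EAE (75.3 to 101 CPM) stands above both other groups, while the groups of Nr3c1, Nr3c2, Hsd11b1 and Ptges3 overlap.

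In untreated EAE against naive cortex (EAE against naive cortex from here on), Fkbp5 rose 3.22-fold (log2 fold change 1.69 ± 0.26 SE, 95% interval of the fold 2.15 to 4.82, adjusted p = 0.0280 by edgeR's quasi-likelihood test with Benjamini-Hochberg adjustment over 18644 genes). It was 1 of 6 members called, where 0.987% of all tested genes were called, 0.735% higher and 0.252% lower. By p it ranked 80 of all tested genes. The call is close to the threshold: it was lost when EAE replicate 2 (adjusted p = 0.0985), EAE replicate 3 (0.0595), naive replicate 1 (0.123), naive replicate 2 (0.104) or naive replicate 3 (0.108) was left out, and when genes with low counts were kept (0.0525). The log2 fold change stayed between 1.57 and 1.80 in those fits, and the adjusted p spanned 1.55e-09 to 0.123 over all 18 alternatives.

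In treated against untreated EAE, Fkbp5 had a log2 fold change of -1.28 ± 0.25 (SE), with a 95% interval of -1.86 to -0.71, which corresponds to a level 2.44-fold lower in treated EAE. The adjusted p was 0.0931 (edgeR's quasi-likelihood test), so 0 of 6 members were called, where 0.22% of all tested genes were called, 0.0912% higher and 0.129% lower. Fkbp5 was the 1 member with an unadjusted p under 0.05, as were 15.1% of all genes. DESeq2 called 1 member, Fkbp5, with adjusted p = 2.64e-05, in a comparison where it called 745 of 18639 genes. No label pairs the brains of these 2 groups, and their numbers were taken as pairs only from correlations in these data. The number was then used as a block over all 9 libraries, including the naive ones, whose numbers were not taken to pair them. In that fit the log2 fold change was -1.33 with adjusted p = 0.0151 in edgeR. With only the 6 libraries compared and the block it was -1.35 with adjusted p = 0.0570, and the adjusted p spanned 2.64e-05 to 0.249 over all 18 alternatives. Within replicate numbers 1, 2 and 3 the treated level was 0.444, 0.460 and 0.298 times the untreated one.

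Treated EAE and naive cortex overlapped in all 6 members, while 6.25% of all genes did not overlap. Fkbp5 had a log2 fold change of 0.40 and a 95% interval of -0.17 to 0.98. None of the 18644 genes was called in this comparison by edgeR (0%), with 318 genes (1.71%) at an unadjusted p under 0.05 and 3 called by DESeq2. Of the 6 members, 0 had an unadjusted p under 0.05 and DESeq2 called 0. The interval still includes a level 1.97-fold that of naive cortex. The 3 comparisons share libraries and are not independent of each other.

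**Figure D2:**
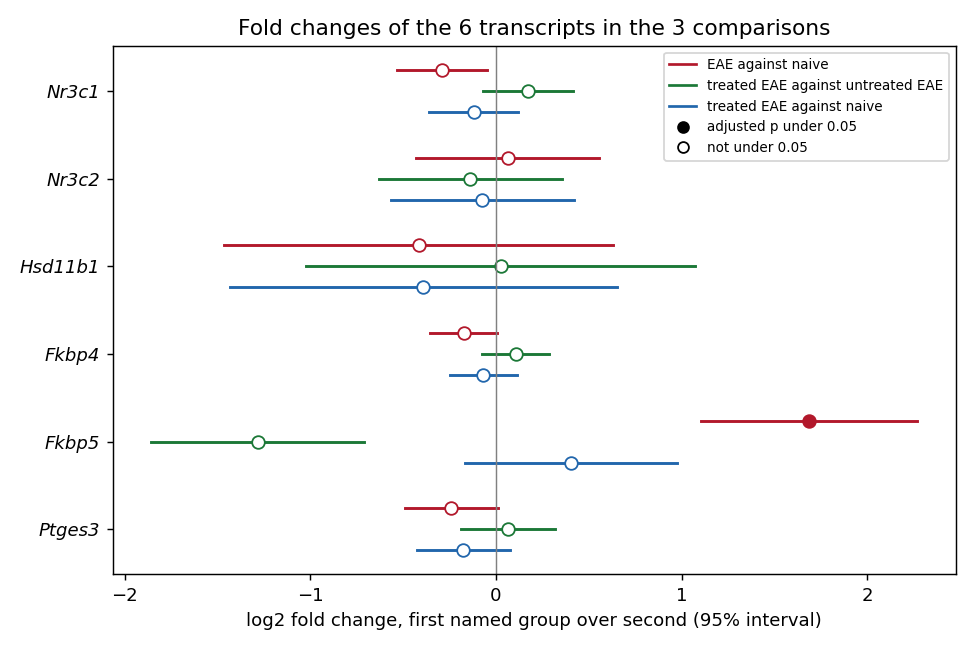
Log2 fold change of the 6 transcripts in the 3 comparisons (first named group over second) with 95% intervals from the edgeR fit; filled points have an adjusted p under 0.05. The Fkbp5 estimates are 1.69 in EAE against naive cortex and -1.28 in treated against untreated EAE, and every interval of Fkbp4 and Ptges3 includes 0.

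Fkbp4, which encodes the competing immunophilin FKBP52, had levels of 95.9, 106.5 and 102.2 CPM in treated EAE, 98.7, 84.8 and 99.6 CPM in untreated EAE and 107, 100.4 and 112 CPM in naive cortex. The untreated EAE libraries were all below the naive ones, by a margin of less than 1 CPM between the closest libraries. The log2 fold change in EAE against naive cortex was -0.17 ± 0.08 (SE, 95% interval -0.36 to 0.01, edgeR adjusted p = 0.327). In treated against untreated EAE it was 0.11 (95% interval -0.08 to 0.29, edgeR adjusted p = 0.595). Groups did not overlap for 2 of 6 members in EAE against naive cortex, where 24% of all genes did not overlap, and for 1 of 6 in treated against untreated EAE, where 19.2% did not.

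The balance of the 2 competitors was also given as the ratio of Fkbp5 to Fkbp4 counts within each library, which does not depend on scaling. The ratio was 0.430, 0.438 and 0.220 in treated EAE, 0.940, 1.20 and 0.757 in untreated EAE and 0.289, 0.295 and 0.206 in naive cortex. The 3 untreated EAE libraries had the highest ratios and did not overlap either other group. This is a ratio of counts and not of levels per length. The mean log2 ratio was 1.87 higher in untreated EAE than in naive cortex (3.64-fold, p = 0.1, adjusted over 6 tests 0.3) and differed by -1.45 in treated against untreated EAE (2.74-fold lower, p = 0.1, adjusted 0.3) in two-sided exact permutation tests. With 3 against 3 libraries 0.1 is the smallest p possible, so neither can pass 0.05. In treated EAE against naive cortex the difference was 0.41 (exact permutation p = 0.3, adjusted 0.45).

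**Figure D3:**
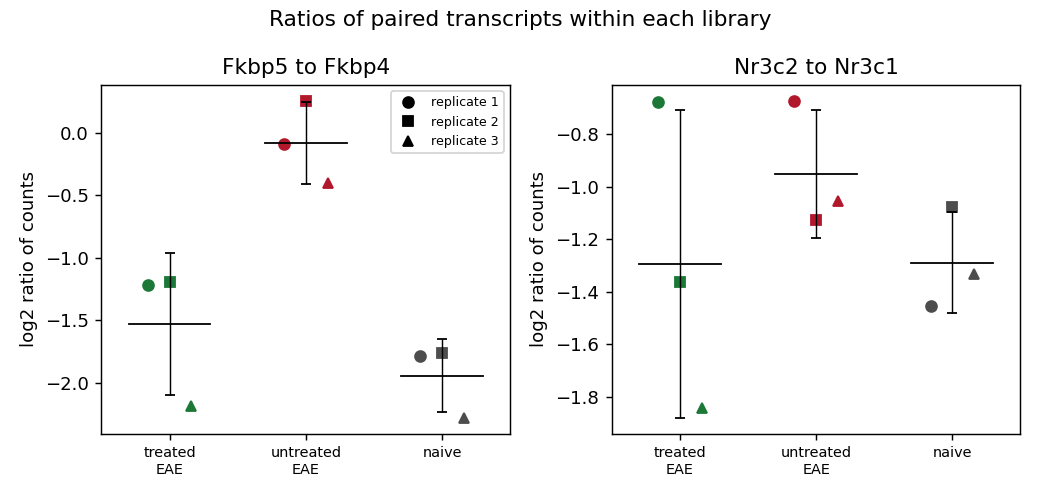
Log2 ratio of counts within each library for Fkbp5 to Fkbp4 (left) and Nr3c2 to Nr3c1 (right), by group; points are libraries, with shapes for replicate numbers, and bars are the mean and SD of 3 libraries. The Fkbp5 to Fkbp4 ratio in untreated EAE (log2 -0.40 to 0.26) does not overlap the other groups, and the Nr3c2 to Nr3c1 ratio overlaps in all 3.

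Ptges3, whose product p23 stabilises hormone-binding receptor and also has prostaglandin E synthase activity, was at 51.2, 45.2 and 39.8 CPM in treated EAE, 48.8, 41.9 and 39.6 CPM in untreated EAE and 54.7, 52.5 and 46.7 CPM in naive cortex. The ranges overlapped in all 3 groups. The log2 fold change was -0.24 (95% interval -0.49 to 0.01, edgeR adjusted p = 0.332) in EAE against naive cortex and 0.06 (95% interval -0.19 to 0.32, edgeR adjusted p = 0.841) in treated against untreated EAE.

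Nr3c1, the glucocorticoid receptor, had levels of 107.5, 110.9 and 130.5 CPM in treated EAE, 100.2, 94.9 and 114.6 CPM in untreated EAE and 130.3, 112.0 and 136.6 CPM in naive cortex. The 2 lowest of the 9 levels were in untreated EAE, and the ranges of all 3 groups overlapped. The log2 fold change in EAE against naive cortex was -0.29 ± 0.11 (SE), with a 95% interval of -0.53 to -0.05. It had an unadjusted p of 0.0229 but an adjusted p of 0.221 by edgeR, in a comparison where 16.4% of all genes had an unadjusted p under 0.05. In treated against untreated EAE the estimate was 0.17 (95% interval -0.07 to 0.41, edgeR adjusted p = 0.503). As a level, the first interval runs from -30.9% to -3.40% relative to naive cortex.

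Nr3c2, the mineralocorticoid receptor, which binds corticosterone with high affinity and is most abundant in hippocampus, was at 67.2, 43.2 and 36.3 CPM in treated EAE, 62.9, 43.5 and 55.2 CPM in untreated EAE and 47.5, 53.0 and 54.2 CPM in naive cortex. The treated libraries held both the highest and the lowest level of all 9. The same libraries had the highest and the lowest summed level of 9 hippocampal markers, 432 CPM in treated replicate 1 and 203 CPM in treated replicate 3, while the untreated EAE sums were 327 to 334 CPM and the naive sums 305 to 374 CPM. The part of this in the Nr3c2 values was not tested. The log2 fold change was 0.06 (95% interval -0.43 to 0.56, edgeR adjusted p = 0.930) in EAE against naive cortex and -0.14 (95% interval -0.63 to 0.36, edgeR adjusted p = 0.822) in treated against untreated EAE. Both estimates changed sign when 1 library was left out, to -0.06 without untreated EAE replicate 1 and to 0.04 without treated replicate 3. Counts of Nr3c2 may include reads of Gm10649 on the opposite strand, which overlaps 247 bases (3.82%) of its exons, since the sources used here do not give the strand setting.

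The ratio of Nr3c2 to Nr3c1 counts was 0.625, 0.389 and 0.279 in treated EAE, 0.628, 0.459 and 0.481 in untreated EAE and 0.365, 0.474 and 0.397 in naive cortex. The groups overlapped in each comparison. The log2 differences were 0.34 in EAE against naive cortex (exact permutation p = 0.2, adjusted 0.4) and -0.34 in treated against untreated EAE (exact permutation p = 0.4, adjusted 0.48).

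Hsd11b1, whose enzyme regenerates corticosterone from its inactive keto form, had the lowest levels in CPM and the widest spread. It was at 11.7, 7.07 and 14.4 CPM in treated EAE, 9.93, 7.05 and 15.5 CPM in untreated EAE and 8.81, 10.3 and 24.4 CPM in naive cortex. Naive replicate 3 alone lay above 20 CPM, and it decided the sign of the estimate. The log2 fold change in EAE against naive cortex was -0.42 (95% interval -1.46 to 0.63, edgeR adjusted p = 0.719), and 0.19 without that library. In treated against untreated EAE it was 0.03 (95% interval -1.02 to 1.07, edgeR adjusted p = 0.989), an interval that includes a 2-fold difference either way. The opposing enzyme Hsd11b2, named after its values were seen, had between 0 and 10 counts a library and did not pass the filter.

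In every group replicate 3 had the highest Nr3c1 and Hsd11b1 levels and the lowest Fkbp5 and Ptges3 levels. It also had the highest summed level of 8 oligodendrocyte markers in every group (9548 CPM in treated EAE, 6124 CPM in untreated EAE and 7252 CPM in naive cortex) and the lowest summed level of 7 striatal markers (342 CPM in treated EAE, 236 CPM in untreated EAE and 218 CPM in naive cortex). The margin was small for oligodendrocyte markers in untreated EAE (5979 CPM in replicate 1) and for striatal markers in treated EAE (354 CPM in replicate 1). The part of tissue makeup in these within-group differences was not tested.

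Between genes, levels can be compared only per length of exon, here as CPM per kilobase of GENCODE M21 exons, which may not be the annotation the authors counted with. In naive cortex the order of these levels was Fkbp4 (38.1 ± 2.08), Ptges3 (23.1 ± 1.88), Nr3c1 (16.4 ± 1.67), Nr3c2 (7.97 ± 0.554), Hsd11b1 (3.41 ± 2.03) and Fkbp5 (2.94 ± 0.449; SD, n = 3 each). Hsd11b1 and Fkbp5 differed by less than the spread of Hsd11b1. In untreated EAE Fkbp5 was at 9.49 ± 1.40 CPM per kilobase and Nr3c2 at 8.32 ± 1.51, a difference within the spread of either, and the order of the other members was that of naive cortex. In treated EAE Fkbp5 was at 3.89 ± 1.34 CPM per kilobase, again next to Hsd11b1 at 2.60 ± 0.873. The genes lie on separate chromosomes (RefSeq, GRCm38.p6): Nr3c1 at chr18:39410545-39519421, Nr3c2 at chr8:76898083-77245012, Hsd11b1 at chr1:193221640-193264045, Fkbp4 at chr6:128430103-128438656, Fkbp5 at chr17:28398753-28486149 and Ptges3 at chr10:128058982-128077254.

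The genes whose profile over the 9 libraries was most like that of Fkbp5 were sought among 12734 tested genes whose log2 CPM averaged 2 or more, as the root mean square difference of log2 CPM centred on each gene's mean. Serping1, a complement inhibitor, was nearest (0.284), followed by Ucp2, a mitochondrial carrier (0.309), Zim1, an imprinted zinc finger gene (0.331), Ddit4, an inhibitor of mTORC1 signalling that glucocorticoids induce (0.331), and Fcgr3, a myeloid Fc receptor (0.349). The median over all genes was 0.804, and Fkbp5's own spread about its mean was 0.790. Being chosen for likeness to Fkbp5, they have its pattern by construction.

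Ddit4 had the smallest p of all tested genes in both EAE against naive cortex and treated against untreated EAE. It was at 29.4, 31.3 and 31.4 CPM in treated EAE, 71.1, 80.2 and 67.8 CPM in untreated EAE and 25.5, 27.3 and 28.1 CPM in naive cortex. Its log2 fold change was 1.44 (edgeR adjusted p = 0.000179) in EAE against naive cortex and -1.25 (edgeR adjusted p = 0.000623) in treated against untreated EAE. The SD within treated EAE was 1.13 CPM for Ddit4, against 12.7 CPM for Fkbp5. Ucp2 had 1.55 (edgeR adjusted p = 0.0114) in EAE against naive cortex and -1.04 (edgeR adjusted p = 0.0667) in treated against untreated EAE, and the other 3 were not called in either comparison.

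**Figure D4:**
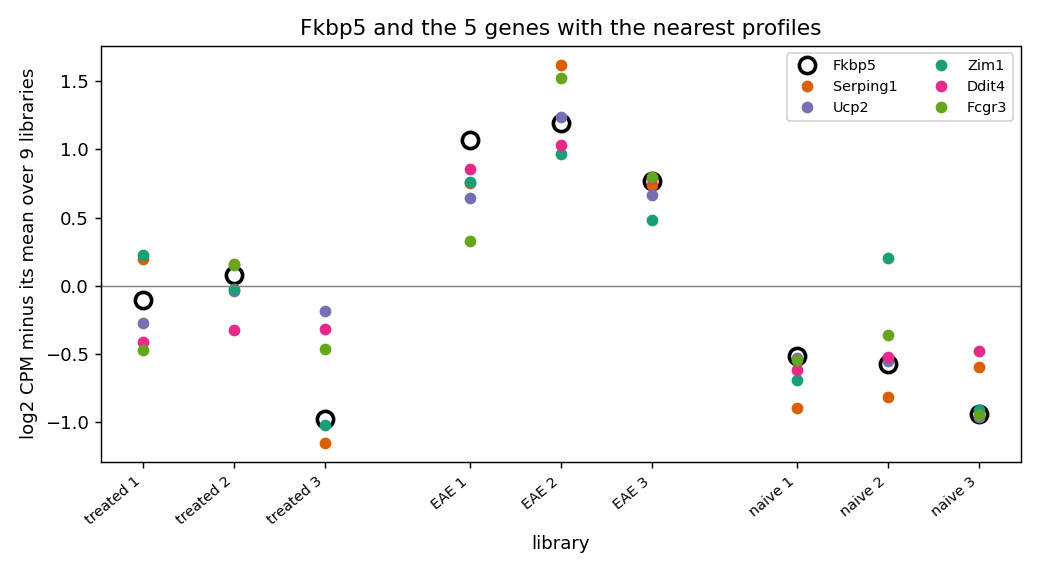
Log2 CPM minus the gene's mean over 9 libraries for Fkbp5 (open circles) and the 5 genes with the nearest profiles, by library in the 3 groups. All 6 genes lie above their mean in every untreated EAE library, and Fkbp5, Serping1 and Zim1 share a low value of about 1 below the mean in treated replicate 3.

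The remaining chaperones of the receptor cycle were described as a list of 24 genes, all of them tested. In EAE against naive cortex edgeR called 0 of 24, with 7 at an unadjusted p under 0.05, as were 16.4% of all tested genes. The estimates were negative for 20 and positive for 4, with a median log2 fold change of -0.15, beside -0.005 for all tested genes. In treated against untreated EAE edgeR again called 0, with 11 at an unadjusted p under 0.05, as were 15.1% of all genes. Of the 24 estimates 20 were positive, with a median of 0.16 beside 0.003 for all genes. In treated EAE against naive cortex the median was 0.03. DESeq2 called Hsph1 and Hsp90b1 lower in EAE against naive cortex, and Hsph1, Hsp90b1, Hspa4 and Hsp90aa1 higher in treated against untreated EAE. These 4 were named after their values were seen. Over all tested genes, DESeq2 called 1068 in EAE against naive cortex and 745 in treated against untreated EAE. The same all-gene shares and DESeq2 totals apply to the lists that follow.

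Hsp90ab1, the constitutive cytosolic HSP90 and the chaperone with the most counts, averaged 1366 ± 105 CPM in treated EAE, 1175 ± 66.4 CPM in untreated EAE and 1307 ± 59.6 CPM in naive cortex (SD, n = 3 each). Its log2 fold change was -0.15 (edgeR adjusted p = 0.393) in EAE against naive cortex and 0.22 (edgeR adjusted p = 0.254) in treated against untreated EAE. Hspa8, the constitutive HSP70 that loads the receptor, had -0.16 (edgeR adjusted p = 0.378) and 0.20 (edgeR adjusted p = 0.301) in the same 2 comparisons. Hsph1, an HSP110 that exchanges nucleotide on HSP70, had the largest estimates of the list. It was at 266, 294 and 257 CPM in treated EAE, 204, 183 and 207 CPM in untreated EAE and 302, 240 and 261 CPM in naive cortex. The untreated EAE libraries were below all others. Its log2 fold changes were -0.43 (edgeR adjusted p = 0.0703) and 0.46 (edgeR adjusted p = 0.0953).

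**Figure D5:**
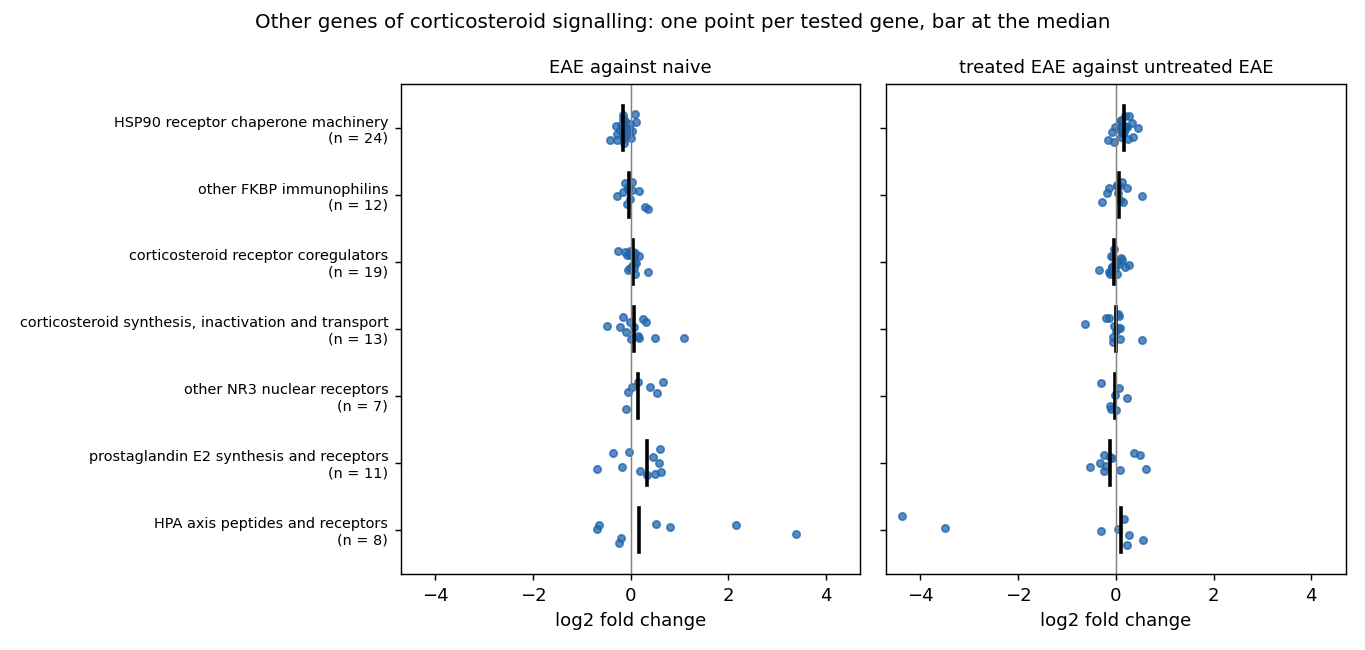
Log2 fold change of each tested gene in 7 lists of corticosteroid signalling genes, in EAE against naive cortex (left) and treated against untreated EAE (right); each point is a gene and the bar is the list's median. The HSP90 machinery (n = 24) lies in a narrow band with medians of -0.15 and 0.16, and the points furthest from 0 belong to hormone peptides at low counts.

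Among 12 tested FKBP family members other than Fkbp4 and Fkbp5, edgeR called 0 in EAE against naive cortex and 0 in treated against untreated EAE, with 1 and 0 at an unadjusted p under 0.05 and 0 called by DESeq2 in both. Their median log2 fold changes were -0.03 and 0.06. Fkbp1a, which encodes FKBP12, averaged 363 ± 46.4 CPM in treated EAE, 352 ± 17.9 CPM in untreated EAE and 383 ± 50.9 CPM in naive cortex. Fkbp8, the other member with most counts, had log2 fold changes of -0.05 (edgeR adjusted p = 0.793) and 0.03 (edgeR adjusted p = 0.888). None of these family members had an estimate as large as that of Fkbp5 in either comparison.

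Receptor coregulators (19 tested) gave 0 calls by edgeR in EAE against naive cortex and 0 in treated against untreated EAE, with 3 at an unadjusted p under 0.05 in each. The corepressor Ncor1, which had the most counts, had log2 fold changes of 0.04 in EAE against naive cortex and 0.07 in treated against untreated EAE. DESeq2 called Hexim1, whose product sequesters the elongation factor P-TEFb and binds the glucocorticoid receptor, higher in the first comparison, and in the second Hexim1 lower and Smarca4, a remodeller ATPase, higher. Hexim1 and Smarca4 were named after their values were seen. Hexim1 was at 58.8, 57.1 and 60.3 CPM in treated EAE, 79.1, 66.5 and 78.0 CPM in untreated EAE and 61.1, 57.2 and 57.6 CPM in naive cortex. Its log2 fold changes were 0.35 (edgeR adjusted p = 0.0660) and -0.34 (edgeR adjusted p = 0.106), with no overlap of the untreated EAE libraries with either other group.

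Steroid synthesis, inactivation and transport genes (13 of 19 tested) gave 0 calls by edgeR in both comparisons, with 3 and 1 at an unadjusted p under 0.05. Abcb1a encodes an efflux transporter of the blood-brain barrier. It was at 48.5, 48.9 and 70.4 CPM in treated EAE and 52.8, 81.5 and 58.4 CPM in untreated EAE. In naive cortex it was at 46.2, 47.5 and 43.4 CPM. It had log2 fold changes of 0.49 (edgeR adjusted p = 0.232) in EAE against naive cortex and -0.20 (edgeR adjusted p = 0.665) in treated against untreated EAE. Abcc1, another transporter, had 0.01 and -0.05. Tspo, a mitochondrial protein also used as a marker of activated glia and named after its values were seen, had 1.09 (edgeR adjusted p = 0.0596) in EAE against naive cortex and was the 1 gene of the list that DESeq2 called there. In 6 of the alternatives edgeR called it too, with adjusted p between 0.0365 and 0.0456. DESeq2 called 0 in treated against untreated EAE.

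The 7 other NR3 receptors gave 0 calls in either comparison by edgeR and 0 by DESeq2, with 0 at an unadjusted p under 0.05. Esrra, an orphan receptor, had log2 fold changes of 0.02 and 0.0047, and Pgr, the progesterone receptor, had -0.06 and 0.06. Of 11 genes of the hypothalamic and pituitary stress axis, 8 were tested and edgeR called 0 in both comparisons, with 2 at an unadjusted p under 0.05 in each. Crhr1, the receptor of corticotropin-releasing hormone, had -0.70 (95% interval -1.33 to -0.07, edgeR adjusted p = 0.260) and 0.56 (edgeR adjusted p = 0.384), and Crhbp, which binds the hormone, had -0.23 and 0.16. Avp, a hypothalamic peptide named after its values were seen, was at 0.366, 0.308 and 0.147 CPM in treated EAE, 2.30, 1.65 and 14.0 CPM in untreated EAE and 0.648, 0.660 and 0.379 CPM in naive cortex. DESeq2 called it in both comparisons and edgeR in neither.

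The prostaglandin E2 genes (11 tested), listed for the enzyme activity of p23, gave 0 calls by edgeR and 0 by DESeq2 in either comparison, with 3 and 0 at an unadjusted p under 0.05. Their median log2 fold change was 0.33 in EAE against naive cortex and -0.12 in treated against untreated EAE. Ptgs1, a cyclooxygenase, had 0.33 (edgeR adjusted p = 0.469) and -0.25 (edgeR adjusted p = 0.625), and Ptges2, a prostaglandin E synthase, had -0.04 and 0.08.

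Genes that glucocorticoids induce besides Fkbp5 were listed with earlier results of these data known, so their counts are not an independent test. The 20 tested included 8 that rose in EAE against naive cortex, where 0.987% of all tested genes were called. The median log2 fold change of the 20 was 0.84 beside -0.005 for all genes. In treated against untreated EAE 3 fell, Ddit4, Sgk1 and Nfkbia, where 0.22% of all genes were called, with a median of -0.75 beside 0.003. In treated EAE against naive cortex edgeR called 0 of 20 and DESeq2 1, with 8 at an unadjusted p under 0.05 (1.71% of all genes), 16 estimates positive and a median of 0.24 beside 0.01. Over 18 alternatives the count in EAE against naive cortex ran from 1 to 16: it was 10 without untreated EAE replicate 1, 5 without untreated EAE replicate 2, and 1, 2 and 3 without naive replicates 1, 2 and 3. The count in treated against untreated EAE ran from 1 to 10, with 1 or 2 when any 1 library was left out.

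Marker sums of other cells and tissues are given for the groups in which Fkbp5 differed. Summed microglial markers were 341 to 413 CPM in treated EAE, 346 to 705 CPM in untreated EAE and 296 to 369 CPM in naive cortex, with all 8 markers detected. Summed monocyte and lymphocyte markers were 13.9 to 29.4 CPM in treated EAE, 26.1 to 117 CPM in untreated EAE and 12.5 to 29.9 CPM in naive cortex, with Ms4a4b, Cd3e and Cd3g at 0 in some library. Fibroblast markers of meninges summed to 306 to 770 CPM in treated EAE, 485 to 1281 CPM in untreated EAE and 291 to 447 CPM in naive cortex. Endothelial markers summed to 254 to 381 CPM in treated EAE, 288 to 406 CPM in untreated EAE and 264 to 269 CPM in naive cortex. Pericyte and smooth muscle markers summed to 159 to 237 CPM in treated EAE, 175 to 224 CPM in untreated EAE and 167 to 172 CPM in naive cortex. Choroid plexus markers summed to 8.63 to 20.0 CPM in treated EAE, 28.2 to 905 CPM in untreated EAE and 12.6 to 45.8 CPM in naive cortex. By library, microglial sums were 346, 705 and 453 CPM, monocyte and lymphocyte sums 26.1, 72.2 and 117 CPM, and choroid plexus sums 905, 28.2 and 108 CPM in untreated EAE replicates 1, 2 and 3, in which Fkbp5 was at 92.7, 101 and 75.3 CPM. Red cell markers summed to 102 to 380 CPM in treated EAE, 7.16 to 23.6 CPM in untreated EAE and 131 to 175 CPM in naive cortex. The untreated EAE sums did not overlap the naive ones for fibroblasts, endothelium, pericytes and red cells. They overlapped for microglia, for monocytes and lymphocytes, and for choroid plexus. Among single genes, 24% of all tested did not overlap in that comparison. Between treated and untreated EAE the sums did not overlap for choroid plexus and red cells, and overlapped for the other types listed here. There, 19.2% of all tested genes did not overlap. Of these markers edgeR called only red cell genes, 2 lower in EAE against naive cortex and 1 higher in treated against untreated EAE. The part of any of these marker differences in the Fkbp5 values was not tested.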

How the data were processed

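Per the labels' protocols, poly(A) RNA from cortical tissue was sequenced on an Illumina HiSeq. The series' design text names FastQC (version 0.11.8 per the submitters' processing notes) for read quality, fastp for trimming, Hisat2 for alignment and bowtie2 for quantification, and the notes name mm10. The sources used here give neither annotation nor strand setting. Raw counts, as deposited by the authors, cover 34714 genes, 7089 of them at 0 throughout. A further 9 columns belong to no sample described here and were left aside. Counts of 2 outnumbered counts of 1 by a factor of 3.80 to 4.43 in each library, so 1 fragment may have been counted more than once.

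The test was edgeR's quasi-likelihood F test (edgeR 4.0.16 on R 4.3.3; filterByExpr, TMM, robust glmQLFit at the package default, glmQLFTest) on all 9 libraries with the group as the only factor, with p-values adjusted by Benjamini and Hochberg over 18644 genes and a threshold of 0.05. Standard errors are the absolute log2 fold change over the square root of F. Ratios within a library had 0.5 added to each count and were compared by exact permutation. DESeq2 1.42.0, other scalings, filters, fits and left-out libraries were alternatives. Samples of equal number in treated and untreated EAE deviated together from their group means over all tested genes (correlations 0.175, 0.245 and 0.238). Their numbers, which the titles give, were therefore taken to pair them, though no label states a pairing. Correlations of the other comparisons were not all over 0.1, and samples of unlike number were not compared. No 2 libraries of a group agreed within sampling noise (chi-square per degree of freedom 16.0 to 53.4).

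The 6 members, the gene lists and the markers were chosen with earlier results of these data known. Named were all members, the 5 genes with the nearest profile to a called member, and from each list the called genes, up to 6, or where fewer than 2 were called the 2 with the most counts. Genes named outside this rule are marked as such. Of the genes that the rule names, 1 is not reported here. Promoter sequences are RefSeq's.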

Additional observations from a re-analysis of the deposited data

How the results depend on the processing

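Counts of calls depended strongly on the fit, while the size of the Fkbp5 difference in EAE against naive cortex varied less. Without 1 library, Fkbp5 had a log2 fold change of -1.50 to -1.03 in treated against untreated EAE. In treated EAE against naive cortex it was 0.19 to 0.66. For EAE against naive cortex the 184 genes called became 1068 with DESeq2, 81 with the submitters' added rule of an absolute log2 fold change above 1, 726 with the replicate block on only the 6 libraries compared, and 2 to 261 without 1 library, and the 1 member called became 0 with no filter on low counts, 2 with that block (Nr3c1 at -0.29, adjusted p = 0.0440, the lowest of a range up to 0.488 over its alternatives) and 0 or 1 without 1 library. Fkbp5 kept its direction in all 18 alternatives and its call in 12; without the filter it had a log2 fold change of 1.68, and without 1 library 1.57 to 1.80. For treated against untreated EAE the 41 genes became 745 with DESeq2, 11 with the fold rule, 3 with only the 6 libraries, 4 with the block on those 6, and 4 to 38 without 1 library, and the 0 members became 1 with DESeq2 (Fkbp5 at -1.29) and 1 with the replicate block (Fkbp5 at -1.33), and 0 without any 1 library. The replicate block over all 9 libraries gave 46 and 238 calls in treated against untreated EAE and in EAE against naive cortex, and changed no other member's call. In EAE against naive cortex (correlations 0.055, 0.114 and 0.360) the numbers were not taken to pair samples. Nor were they in treated EAE against naive cortex (-0.246, -0.121 and 0.199). Replicate 3 nonetheless shared extremes of several members and marker sums across the groups, as described above. For treated EAE against naive cortex the 0 genes became 3 with DESeq2. The cause of these changes was not tested, other than that fewer samples or genes enter some fits.

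Signs turned in some fits without 1 library, all for members that were not called: in EAE against naive cortex Nr3c2 spanned -0.0604 to 0.19 and Hsd11b1 -0.77 to 0.19, in treated against untreated EAE Nr3c2 spanned -0.45 to 0.0356, Hsd11b1 -0.21 to 0.37 and Ptges3 -0.0414 to 0.15, and in treated EAE against naive cortex Nr3c2 spanned -0.38 to 0.10, Hsd11b1 -0.66 to 0.21 and the Nr3c2 to Nr3c1 ratio -0.31 to 0.27. Hsd11b1 had between 218 and 709 counts a library, so its spread is larger than counting error. The planned legacy fit is the default of the installed edgeR and so is the main one; the newer fit, which called 197, 41 and 0 genes in EAE against naive, treated against untreated EAE and treated EAE against naive cortex, and the block on 6 libraries were chosen after seeing the data. In EAE against naive cortex the replicate block called Crhr1 (-0.75, adjusted p = 0.0288; 0.0346 with only 6 libraries) and Tspo (1.06, adjusted p = 0.0456), and the block on 6 libraries also called Hsph1, Hsp90aa1 and Hspa4 lower and Hexim1 higher. Of the glucocorticoid-induced genes, the block called 11 higher (16 with only 6 libraries) in EAE against naive cortex and 4 lower (2 with only 6) in treated against untreated EAE. With DESeq2, 14 of the 20 glucocorticoid-induced genes were higher in EAE than in naive cortex and 10 lower in treated than in untreated EAE.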
